A study of Mus musculus with 21 samples.

Results

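The genes described are the adult hemoglobin genes of the mouse and the red cell enzyme that starts heme synthesis: Hbb-bs and Hbb-bt (beta chains), Hba-a1 and Hba-a2 (alpha chains) and Alas2. They were chosen by name, 5 of the 55487 genes in the table of counts, 39394 of them with a count in some library. RNA of the hippocampus was sequenced from male wild type C57BL/6 mice aged 10 weeks, 1 library per mouse. Mice after maternal separation (MS, 9 mice) came from whole nests kept away from the dam for 4 hr a day between postnatal days (PND) 10 and 17, with most of the nesting material taken from the home cage, and mice after standard rearing (SR, 12 mice) were the controls. All were killed by decapitation, and the hippocampus was dissected at once and snap frozen; no step to flush blood from the vessels is described. Whole nests were assigned to a condition, but the labels name no nest. The animal numbers run in 7 sets of 3, called number sets here, and each mouse is named by its set: sets A, B and C are MS mice, and D, E, F and G are SR mice.

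The MS library A2 stood apart from the rest, with a score of 27.1 on the first component of a PCA where the others lay between -12.2 and 11.9. It was left out, as the study left out 1 outlier without naming it, so that 8 MS and 12 SR mice were compared. Their libraries held 17276810 to 26450808 counts. Levels are given as CPM, the counts of a gene scaled to a common normalized library total. The animal numbers fall into a low range (sets A, B, D, E and F) and a high range (sets C and G), which may mark a batch. The fit has no term for it, and values within each range are given beside the results.

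Hemoglobin carries oxygen in red blood cells and is built from alpha and beta chains, each holding a heme. Mature red cells have no nucleus, and young ones (reticulocytes) still carry globin mRNA. Alas2 makes the first compound of the heme pathway in red cell precursors, where other cells use Alas1. Globin mRNA in brain tissue is widely used as a sign of blood left in the vessels, and low levels have also been described in neurons and glia. In bulk RNA, fewer cells of a type and less RNA per cell cannot be told apart.

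In GENCODE M21 coordinates (GRCm38), Hbb-bs (ENSMUSG00000052305, chr7:103826534-103828096) and Hbb-bt (ENSMUSG00000073940, chr7:103812524-103813996) lie next to each other on the minus strand. Hba-a1 (ENSMUSG00000069919, chr11:32283511-32284465) and Hba-a2 (ENSMUSG00000069917, chr11:32296489-32297298) lie on the plus strand, and so does Alas2 (ENSMUSG00000025270, chrX:150547375-150570638). All are protein coding. The 250 bases before the RefSeq start of 4 of them are printed here, and any bearing of these sequences on the levels was not tested. Capitals mark the motif CACCC, a core bound by red cell factors of the KLF family, and the motif GATAA, a core bound by the GATA family. They also mark the letters CCAAT and the letters TATAA, found in general promoter elements, wherever they occur. Matches on either strand are marked, and those on the other strand read as the reverse complement. In GENCODE some transcripts of these genes begin further upstream, within the stretches shown. The sequences are RefSeq's in build GRCm38.p6, 5′ to 3′ along the gene: Hbb-bs at chr7:103827929-103828178 (minus strand), Hbb-bt at chr7:103813924-103814173 (minus strand), Hba-a1 at chr11:32283422-32283671 (plus strand) and Alas2 at chrX:150547167-150547416 (plus strand).
Hbb-bs: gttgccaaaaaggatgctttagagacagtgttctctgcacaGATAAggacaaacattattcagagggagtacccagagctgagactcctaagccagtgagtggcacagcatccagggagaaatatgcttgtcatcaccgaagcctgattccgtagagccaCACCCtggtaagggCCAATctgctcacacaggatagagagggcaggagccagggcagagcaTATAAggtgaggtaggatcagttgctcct
Hbb-bt: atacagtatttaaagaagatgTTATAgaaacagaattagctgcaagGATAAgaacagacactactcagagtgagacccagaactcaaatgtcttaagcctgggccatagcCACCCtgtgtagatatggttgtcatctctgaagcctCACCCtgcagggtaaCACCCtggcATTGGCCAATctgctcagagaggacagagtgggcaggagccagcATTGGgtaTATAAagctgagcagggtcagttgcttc
Hba-a1: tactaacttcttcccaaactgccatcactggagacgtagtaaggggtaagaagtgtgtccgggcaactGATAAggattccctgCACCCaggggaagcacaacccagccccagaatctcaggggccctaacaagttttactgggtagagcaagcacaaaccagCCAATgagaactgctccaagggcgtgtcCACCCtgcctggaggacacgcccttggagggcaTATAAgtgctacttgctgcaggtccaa
Alas2: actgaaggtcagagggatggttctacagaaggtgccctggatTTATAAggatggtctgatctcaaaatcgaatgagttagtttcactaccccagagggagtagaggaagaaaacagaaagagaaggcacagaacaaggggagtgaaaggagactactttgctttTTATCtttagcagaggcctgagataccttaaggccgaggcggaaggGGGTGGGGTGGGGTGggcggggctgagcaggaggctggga
Hbb-bs, Hbb-bt and Hba-a1 held a match to every one of the 4 motifs. In Hbb-bs the CACCC match began at base -90, the CCAAT match at -76 and the TATAA match at -29, counted back from the start. On its own strand Hbb-bt had them in the same order, with the nearest CACCC at -89, CCAAT at -75 and TATAA at -28, and on the other strand it had CCAAT matches from -80 and -36 and a TATAA match from -229. In Hba-a1 the order of the nearest matches was CCAAT at -88, CACCC at -60 and TATAA at -27. Alas2 had no CCAAT match, and its 3 CACCC matches lay on the other strand, the nearest from -30, while its TATAA matches, overlapping on the 2 strands, began at -208 and -207. These motifs are short and common: of 32851 RefSeq promoters of the same organism, 52% held the motif CACCC, 33.8% held CCAAT, 22.8% held TATAA and 22.6% held GATAA in the same window. Aligned with gaps, the upstream sequences of Hbb-bs and Hbb-bt were 68.8% identical, beside 38.4% to 44.4% for pairs not both alpha or both beta. The upstream sequence of Hba-a2 shared an unbroken run of 297 bases with that of Hba-a1 in windows of 300 bases, so it is not printed.

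The transcripts within each pair are also alike, which bears on how far the counts can be told apart. The Hba-a1 and Hba-a2 transcripts were identical at 537 of 538 aligned bases (99.81%), and the Hbb-bs and Hbb-bt transcripts at 553 of 582 (95.02%). Of the stretches of 150 bases, the read length, 57.0% of those in Hba-a1 and 73.1% of those in Hba-a2 also occurred in the other gene. The share was 45.6% for Hbb-bs and 50.7% for Hbb-bt, and 0 of 2398 stretches of Alas2 occurred in another gene of the set. How the counting treated reads that match both genes of a pair is not given in the sources used here, so the split within a pair is uncertain.

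All 5 genes passed the filter on low counts in a fit of 18146 genes. Hbb-bs, the more abundant beta chain gene, had 39.1 CPM in its lowest mouse (G1), a median of 75.8 and 129 CPM in its highest (C1), a range of 3.30-fold. Hba-a1 ran from 41.3 to 145 CPM and Hba-a2 from 37.1 to 128 CPM. Hbb-bt, the less abundant beta chain gene, ran from 15.0 to 44.2 CPM. Alas2 was present in all 20 mice at a far lower level, 1.65 to 5.38 CPM from 37 to 109 counts. Per kb of exon the mean levels over 20 mice were 122 CPM for Hba-a2, 106 for Hba-a1, 97.4 for Hbb-bs, 41.8 for Hbb-bt and 1.27 for Alas2. Since the globins rise and fall together, their order was read within each mouse. On this scale Hba-a2 lay above Hba-a1 and above Hbb-bs in 20 of 20 mice, by 1.07-fold to 1.22-fold and by 1.04-fold to 1.35-fold. Hba-a1 lay above Hbb-bs in 18 of 20 mice, and both alpha genes and Hbb-bs lay above Hbb-bt, and Hbb-bt above Alas2, in all 20. The order of the alpha genes and Hbb-bs depends on annotated exon lengths (812 bases for Hba-a1, 667 for Hba-a2 and 768 for Hbb-bs). That of the alpha genes depends also on the split of shared reads. In counts not scaled by length, Hba-a1 over Hba-a2 ran from 0.998 to 1.14, and Hba-a2 over Hbb-bs from 0.905 to 1.18.

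**Figure D1:**
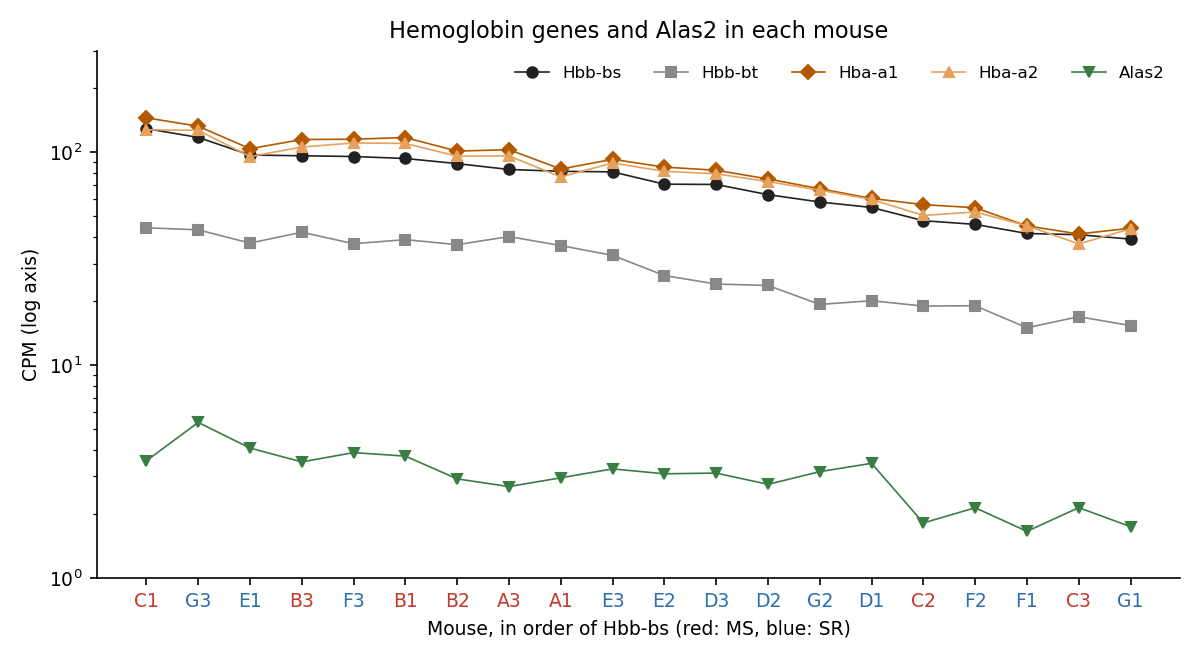
CPM (log axis) of the 5 genes in each of 20 mice, in order of Hbb-bs, with 1 point per mouse and gene. The globin lines run in parallel from C1 (129 CPM of Hbb-bs) to G1 (39.1 CPM), and MS (red) and SR (blue) names are mixed along the axis.

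The spread between mice was far wider than counting error. The coefficient of variation over 20 mice was 34.7% for Hbb-bs, where the counts alone would give 2.64%. For Hbb-bt it was 35.4% against 4.23%, for Hba-a1 35.4% against 2.48% and for Hba-a2 34.0% against 2.55%. Alas2, with its few counts, varied by 29.5% against 12.9%. The SD of log2 CPM of Hbb-bs was 0.52, and 22 of the 4223 genes within 2-fold of its mean level had one at least as wide. The median gene of that level had an SD of 0.0999. For Hba-a1 16 of 3941 genes of like level were at least as wide, for Hba-a2 21 of 4069 and for Hbb-bt 57 of 5217. Each such count includes the gene itself, and those for Hbb-bs and Hba-a2 include other globins. Alas2 stood out less, with 495 of 3195 genes of like level at least as wide. The biological coefficient of variation that edgeR fitted within the conditions was 34.2% to 35.9% for the globins and 26.4% for Alas2, against 11.4% for the median gene.

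The same mice were high or low in every globin. C1 had the highest level of all 4 globins and G3 the next, while F1, C3 and G1 held the 3 lowest places in each. G3 was also the mouse with the most Alas2, and C1 held place 5 there. Hbb-bs and Hba-a1 correlated over the 20 mice at r = 0.989 (rho = 0.977, permutation p = 1e-05, the smallest 100000 permutations can give, adjusted 1.67e-05 over 10 pairs). Hbb-bs and Hbb-bt gave r = 0.967, and Hba-a1 and Hba-a2 r = 0.996, each with the same adjusted permutation p, though the genes of a pair share reads. An alpha and a beta gene shared none of the stretches of 150 bases. Within the 8 MS mice the r of Hbb-bs and Hba-a1 was 0.983, within the 12 SR mice 0.994, and within the low and high ranges of animal numbers 0.981 and 0.995.

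Alas2 gave a lower r with the globins than they gave with each other. Its counting error of 12.9%, against 2.64% for Hbb-bs, by itself lowers r. Against independent counting, Alas2 and Hbb-bs had a chi-square per degree of freedom of 1.79 in MS and 1.16 in SR mice. Hba-a1 and Hbb-bs, with more counts, had 4.82 and 1.43. What part of the lower r comes from counting was not tested. With Hbb-bs, Alas2 gave r = 0.857 (rho = 0.820, permutation p = 2e-05, adjusted 2.22e-05 over the 10 pairs), and r = 0.816 without C3 and G1, the mice farthest from the median of Hbb-bs. Within MS mice r was 0.901 and within SR mice 0.928, and it was 0.812 in the low and 0.883 in the high range. Its r with Hbb-bt was 0.779, with Hba-a1 0.838 and with Hba-a2 0.851. The permutation p of these, adjusted over the pairs, was at most 6e-05.

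More of the spread lay within number sets than between them, which small sets give even where mice are shuffled among them. In set C, Hbb-bs was 129 CPM in C1, 47.7 in C2 and 41.0 in C3. In set G it was 39.1 CPM in G1, 58.4 in G2 and 117 in G3, and in set F 41.5, 45.8 and 95.5 in F1, F2 and F3. In these sets 1 mouse stood well above the other two. Sets A and B were even, with 81.4 and 83.0 CPM in A1 and A3, and 93.5, 88.5 and 96.3 in B1, B2 and B3. Of the spread within conditions, 19.3% lay between sets for Hbb-bs, 29.1% for Hbb-bt, 20.4% for Hba-a1, 22.6% for Hba-a2 and 22.0% for Alas2. In a one-sided permutation test within conditions each had an adjusted p of 0.694 over the 5 genes.

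No member passed the test between MS and SR mice. Hbb-bs had a lowest, median and highest level of 41.0, 85.7 and 129 CPM in MS mice and of 39.1, 66.9 and 117 CPM in SR mice. The groups overlapped almost wholly, with 7 of 8 MS mice inside the range of the SR mice. The means were 82.6 ± 27.9 CPM (SD, n = 8) and 69.6 ± 24.3 CPM (SD, n = 12), and the log2 fold change in edgeR's quasi-likelihood test was 0.25 with SE 0.229 (95% interval -0.23 to 0.73) and an adjusted p of 0.724. Of the 5 genes 0 were called, where edgeR called 2 of 18146 genes (0.0110%) at an adjusted p under 0.05. At an unadjusted p under 0.05 it was also 0 of 5, beside 2095 of all genes (11.5%).

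Hbb-bt came nearest to a difference. It had 16.9, 37.8 and 44.2 CPM (lowest, median, highest) in MS mice and 15.0, 23.8 and 43.2 CPM in SR mice. The low MS mice were C2 and C3, and the other 6 of 8 lay above the SR median. The means were 34.3 ± 10.4 CPM (SD, n = 8) and 26.1 ± 9.40 CPM (SD, n = 12), higher in MS mice by less than the spread. The log2 fold change was 0.40 (SE 0.226, interval -0.08 to 0.87; edgeR p = 0.0957, adjusted p = 0.525). As a fold this was 1.32, with an interval from 0.948 to 1.83.

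The alpha genes gave smaller values. Hba-a1 had 41.3, 102.1 and 145 CPM in MS mice and 43.96, 78.6 and 133 CPM in SR mice, with means of 95.4 ± 33.8 (SD, n = 8) and 79.9 ± 27.8 (SD, n = 12). C1 lay above and C3 below all SR mice. Its log2 fold change was 0.26 (SE 0.237, edgeR adjusted p = 0.724), and that of Hba-a2 was 0.19 (SE 0.233, edgeR adjusted p = 0.810), from means of 87.4 ± 30.8 CPM (SD, n = 8) and 76.9 ± 25.7 CPM (SD, n = 12). Hba-a2 had 37.1, 96.0 and 128 CPM in MS mice and 43.7, 76.0 and 127 CPM in SR mice, so these groups overlapped too.

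Alas2 did not share the sign of the globins. It had 1.81, 2.94 and 3.73 CPM in MS mice and 1.65, 3.13 and 5.38 CPM in SR mice, and all 8 MS mice lay inside the SR range. The log2 fold change was -0.11 (SE 0.187, interval -0.49 to 0.28, edgeR adjusted p = 0.877). Its sign turned to 0.06 within the low range of animal numbers and to 0.01 without set C.

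**Figure D2:**
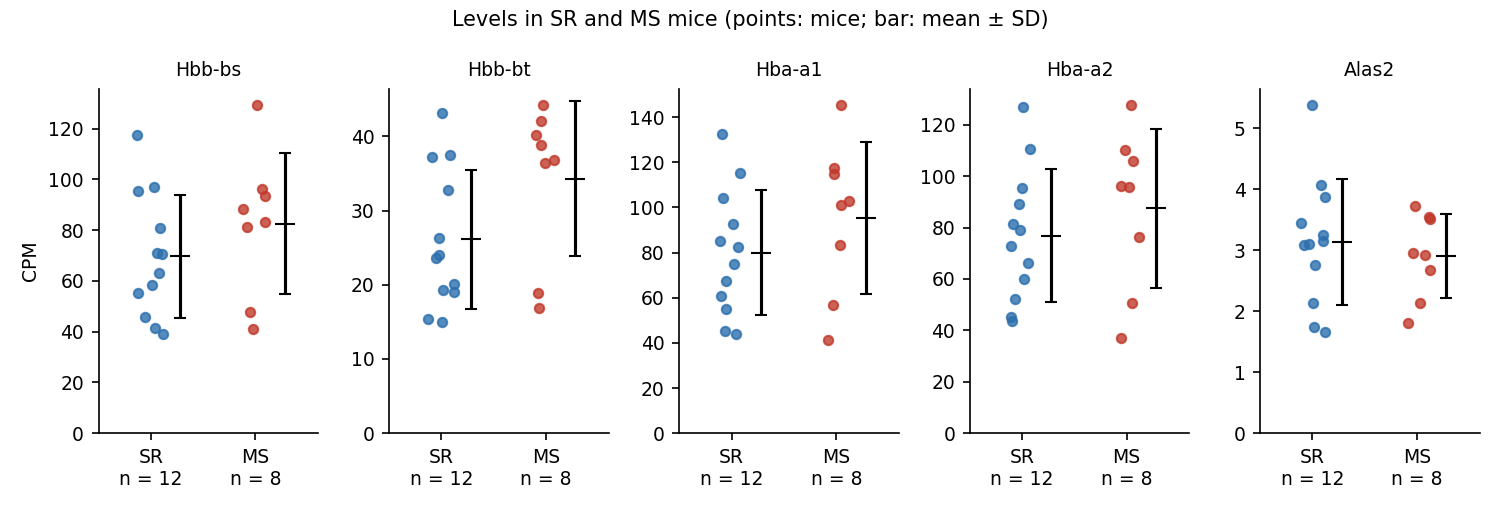
CPM of each gene in SR (blue, n = 12) and MS (red, n = 8) mice, with 1 point per mouse and bars for the mean ± SD; each panel has its own axis from 0. Both groups cover nearly the same range in the globin panels, where 2 MS mice, C2 and C3, lie far below the other 6. In Alas2 the MS mice reach 3.73 CPM and the SR mice 5.38 CPM.

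The low range of animal numbers (5 MS and 9 SR mice) and the high range (3 and 3) gave different values. In the low range the log2 fold changes were 0.36 for Hbb-bs, 0.57 for Hbb-bt, 0.39 for Hba-a1 and 0.35 for Hba-a2, and in the high range 0.03, 0.05, 0.00 and -0.13. None passed the test in either range (edgeR adjusted p of 0.154 or more), and the differences between the ranges themselves had edgeR adjusted p-values of 0.756 to 0.889. The high range holds the widest sets, C and G.

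Ratios of counts within a library do not depend on the library total, and they were much steadier than the levels. The ratio of Hba-a1 to Hbb-bs ran from 1.01 to 1.25 over 20 mice in which Hbb-bs itself ranged 3.30-fold. It was 1.15 ± 0.0916 in MS mice (SD, n = 8) and 1.15 ± 0.0461 in SR mice (SD, n = 12), a log2 difference of -0.0036 (exact permutation test, two-sided, p = 0.927). The sum of the alpha over the sum of the beta counts was 1.55 ± 0.128 in MS mice (SD, n = 8) and 1.64 ± 0.0710 in SR mice (SD, n = 12), and was not tested.

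The ratio of Hbb-bt to Hbb-bs was higher in MS mice. It was 0.419 ± 0.0411 in MS mice (SD, n = 8; from 0.342 in C1, with a median of 0.416, to 0.484 in A3) and 0.375 ± 0.0247 in SR mice (SD, n = 12; from 0.330 in G2, with a median of 0.373, to 0.415 in F2). The groups overlapped, and A and B held the highest MS values. The log2 difference was 0.16, or 1.12-fold (exact permutation test over 125970 splits, two-sided, p = 0.00907, adjusted 0.0181 over 4 ratios). In the low range it was 0.22 with an exact permutation p of 0.0005, the smallest that 5 against 9 mice can give. In the high range it was 0.08 with an exact permutation p of 0.5, where 3 against 3 mice cannot go below 0.1. Since these transcripts share 45.6% and 50.7% of their stretches, the ratio depends on how shared reads were assigned.

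The ratio of Alas2 to Hbb-bs was lower in MS mice. Per 1000 counts of Hbb-bs there were 36.9 ± 7.25 counts of Alas2 in MS mice (SD, n = 8; from 27.5 in C1, with a median of 36.3, to 52.1 in C3) and 45.6 ± 6.60 in SR mice (SD, n = 12; from 39.8 in F1, with a median of 43.8, to 62.7 in D1). All MS mice but B1 and C3 lay below every SR mouse. The log2 difference was -0.31, or 0.805-fold (exact permutation test, two-sided, p = 0.00553, adjusted 0.0181 over 4 ratios). It was -0.32 in the low range (exact permutation p = 0.000999) and -0.34 in the high range (exact permutation p = 0.3). C1, with the most Hbb-bs, had the lowest ratio, and C3, with little, the highest of the MS mice, whereas G3, with nearly as much Hbb-bs as C1, had 45.8.

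Whole nests and not single mice were assigned to a condition. With the means of the number sets as the unit (3 against 4, an alternative chosen after seeing the data), the log2 difference was 0.17 for Hbb-bt over Hbb-bs (exact permutation p = 0.0857, adjusted 0.171) and -0.32 for Alas2 over Hbb-bs (exact permutation p = 0.0286, the smallest this design allows, adjusted 0.114). Neither passed after adjustment. A ratio that alone reaches the smallest p of 0.0286 is adjusted to 0.114 over 4 ratios, so Alas2 could not have passed alone. With Hba-a1 in place of Hbb-bs as the reference, also chosen after seeing the data, the differences were 0.16 for Hbb-bt and -0.31 for Alas2 (exact permutation test over mice, adjusted p = 0.0244 for each). Since Hba-a1 over Hbb-bs differed by only -0.0036, these values follow from those with Hbb-bs and are not separate evidence.

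The alpha genes split in a narrow way. Hba-a2 over Hbb-bs was 1.05 ± 0.0988 in MS mice (SD, n = 8) and 1.11 ± 0.0482 in SR mice (SD, n = 12), a log2 difference of -0.08 (exact permutation p = 0.0862, adjusted 0.115). Set directly against each other, Hba-a1 over Hba-a2 was 1.09 ± 0.0295 in MS mice (SD, n = 8; from 1.057 in B2 to 1.14 in C1) and 1.03 ± 0.0244 in SR mice (SD, n = 12; from 0.998 in F1 to 1.09 in E1). Set C held the highest values, 1.11 to 1.14, and the groups overlapped. In the added test with Hba-a1 as the reference, chosen after seeing the data, Hba-a2 differed by -0.08 (exact permutation p = 0.000151, adjusted 0.000603). That test permuted single mice, although whole nests were assigned. This ratio was not tested over the means of the number sets, where the exact permutation p cannot go below 0.0286. Within each group the ratio varied no more than independent counts would: its coefficient of variation was 2.699% in MS and 2.36% in SR mice, where counting alone gives 3.56% and 3.55%, and the chi-square per degree of freedom was 0.757 and 0.466. Over all 20 mice they were 3.70% against 3.56%, and 1.13. This ratio depends on the split of shared reads between near identical genes.

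**Figure D3:**
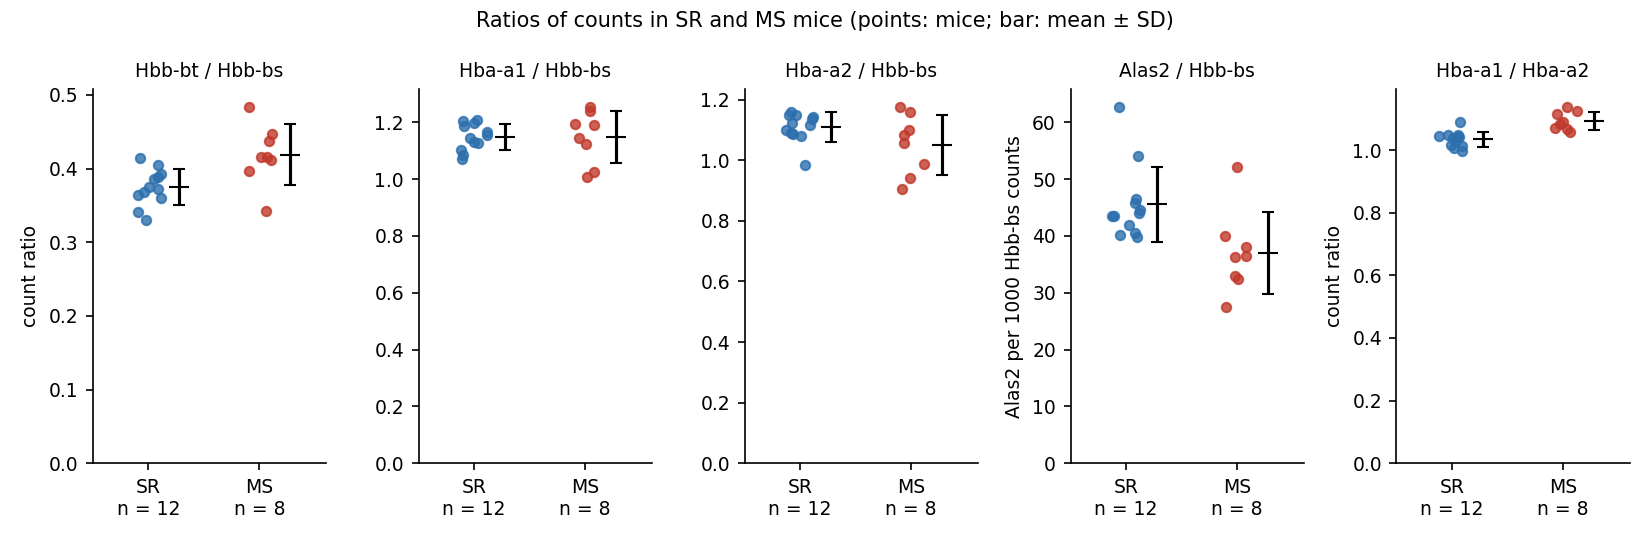
Ratios of counts in SR (blue, n = 12) and MS (red, n = 8) mice, with 1 point per mouse and bars for the mean ± SD; axes start at 0, and the Alas2 panel is per 1000 Hbb-bs counts. Hbb-bt over Hbb-bs lies higher in MS (0.419 against 0.375), Alas2 over Hbb-bs lower (36.9 against 45.6), and Hba-a1 over Hbb-bs equal (1.15 in both).

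Genes of an erythroid list were split between those with few counts and those abundant in this tissue. Of 29 in the table, 13 passed the filter, among them the spectrin gene Sptb (349 CPM), Tmcc2 (278 CPM), Tfrc, the transferrin receptor that takes up iron (90.8 CPM), the ankyrin gene Ank1 (62.2 CPM) and the erythropoietin receptor, Epor (6.03 CPM). Several of these are also expressed by brain cells. The other 16 failed the filter, so that their levels are low by selection: together they had 497 counts in 20 mice (10 to 42 per mouse), against 32252 counts of Hbb-bs. Among them, named after their values were seen, are the anion exchanger of the red cell membrane, Slc4a1 (98 counts in all), the globin activator Klf1 (91) and Gata1 (2). For the 13 that passed, the mean level did not follow Hbb-bs at the threshold used (r = 0.140 over 20 mice, permutation p = 0.557, adjusted 0.658 over 13 relations). Single genes among them went both ways, from r = -0.44 for Sptb to 0.57 for Ube2l6. Of these 13, 0 were called between MS and SR by edgeR. At an unadjusted p under 0.05, Mkrn1 was 0.10 higher on the log2 scale (edgeR p = 0.00973, adjusted p = 0.282) and Tfrc 0.15 lower (log2 -0.15, edgeR p = 0.00139, adjusted p = 0.168).

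Genes of white cells and platelets differed in level. The 10 neutrophil genes all fell below the filter, with 449 counts in all and 6 to 56 per mouse. Of the 10 platelet genes 3 passed, the integrin gene Itga2b (2.17 CPM), Gp5 (1.23 CPM) and Gp1ba (0.734 CPM), and their mean gave r = 0.355 with Hbb-bs (permutation p = 0.124, adjusted 0.231). Of the 12 genes for lymphocytes and monocytes 1 passed, the immunoglobulin heavy chain gene Ighm, with a mean of 13.1 CPM (7.28 to 31.7). It gave r = 0.12 with Hbb-bs and a log2 fold change of -0.25 (SE 0.248, edgeR adjusted p = 0.751). No score could be formed for it or for the neutrophils. How much of the spread of the globins comes from blood left in the vessels was not tested.

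The embryonic globins were at or near 0. Hbb-y had 9 counts in 20 mice, Hbb-bh1 1, and Hbb-bh2 and Hba-x 0, which allows up to 3 counts in a library, or 0.114 to 0.170 CPM (counting error only). The theta globins Hbq1a and Hbq1b had 96 and 164 counts and myoglobin, Mb, 140. The globins that nerve and supporting cells make did pass the filter. Cytoglobin, Cygb, had a mean of 65.9 CPM and a log2 fold change of -0.01 (edgeR adjusted p = 0.983). Neuroglobin, Ngb, had 2.72 CPM and a log2 fold change of 0.62 (SE 0.265, edgeR p = 0.030, adjusted p = 0.375), with r = 0.20 to Hbb-bs.

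The other enzymes of heme synthesis followed Hbb-bs less closely than Alas2, with r of at most 0.45. All 8 were tested and 0 were called; 5 were higher and 3 lower in MS mice, with a median log2 fold change of 0.03, beside 0.00084 for all genes tested. Alas1, the form of other tissues, had 59.3 CPM, with 52.6 to 65.0 across the mice, and r = 0.19 with Hbb-bs. Fech, which puts the iron into heme, had 56.7 CPM and r = 0.03. Urod had the highest r of the 8, 0.45, and Uros the lowest, -0.07. Their mean level gave r = 0.371 with Hbb-bs (permutation p = 0.107, adjusted 0.231), with r = 0.818 in MS and -0.0272 in SR mice. That difference was not tested.

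Of 14 genes of heme breakdown and transport 12 were tested, 0 were called, and 9 were higher and 3 lower, with a median of 0.04. Slc25a38, the mitochondrial carrier that brings glycine in for heme synthesis, had the lowest p, with a log2 fold change of 0.18 (SE 0.0540, edgeR p = 0.00222, adjusted p = 0.189). Hmox1, the inducible heme oxygenase, had 4.16 CPM and a log2 fold change of 0.00055 (edgeR adjusted p = 0.999). The genes for the plasma proteins that bind free heme and hemoglobin, Hpx and Hp, were below the filter. The list's mean level gave r = 0.485 with Hbb-bs (permutation p = 0.0303, adjusted 0.131). Iron handling genes, with the ferritin chains Fth1 (1478 CPM) and Ftl1 and transferrin, Trf (320 CPM), gave r = 0.501 (permutation p = 0.0223, adjusted 0.131), with 0 of 8 called. Without the TMM factor the r of heme synthesis, of heme breakdown and of iron handling passed the test, at 0.537, 0.563 and 0.586 (permutation test, adjusted p of 0.0456, 0.0430 and 0.0313).

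The list that moved with Hbb-bs was that of meningeal fibroblasts, cells of the membranes and vessel sheaths on the brain's surface. The mean log2 CPM of its 8 genes gave r = 0.759 with Hbb-bs over 20 mice (permutation p = 0.00012, adjusted 0.00156 over 13 relations) and rho = 0.627 (permutation p = 0.00378, adjusted 0.0491). It was 0.709 without C3 and G1, 0.704 in MS and 0.786 in SR mice, and 0.678 in the low and 0.887 in the high range. Of its abundant members, the collagen gene Col1a2 (8.07 to 28.5 CPM) gave r = 0.76 and Col1a1 r = 0.68, whereas Dcn, a proteoglycan gene with 10.4 to 41.6 CPM, gave r = 0.07. F1, G1, C2 and F2, which have little Hbb-bs, had the lowest means of the list (1.56, 1.70, 1.81 and 2.01 log2 CPM), and C3 had 2.25. Between conditions the list had 0 of 8 genes called and a median log2 fold change of 0.04.

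**Figure D4:**
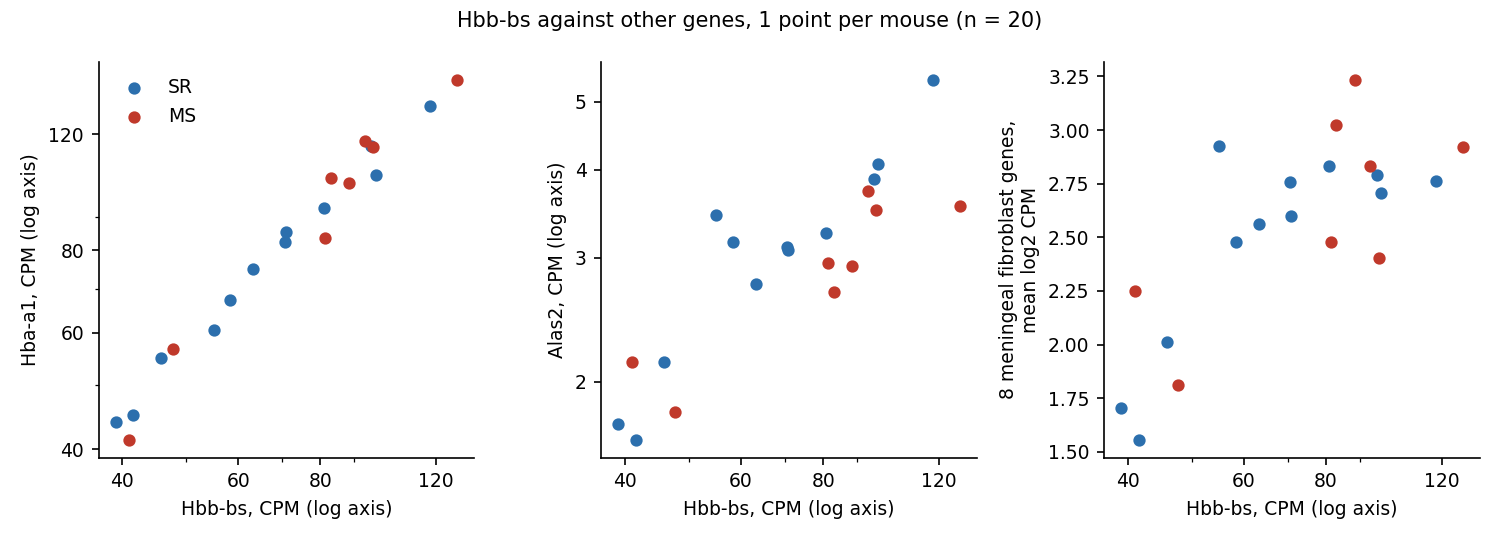
Hbb-bs CPM (log axis) of 20 mice against Hba-a1 CPM and Alas2 CPM (log axes) and against the mean log2 CPM of 8 meningeal fibroblast genes; SR blue, MS red. The points lie on a near straight line for Hba-a1 (r = 0.989) and more loosely for Alas2 (r = 0.857) and the fibroblast genes (r = 0.759).

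Other cell types did not pass that test. Endothelial genes gave r = 0.419 (permutation p = 0.0651, adjusted 0.211), choroid plexus genes 0.398 (p = 0.0811 by permutation, adjusted 0.211), mural cells of the vessel wall 0.197, microglia 0.0671, striatal neurons 0.233 and hippocampal neurons -0.0738. Library size gave -0.268. Levels of some of these marker genes also varied widely between mice. The 8 choroid plexus genes summed to 54.8 to 4221 CPM in MS and 30.6 to 4560 CPM in SR mice. All 8 were higher in MS, with a median log2 fold change of 0.88 and 0 called. The 8 striatal genes were all higher (median 0.47) and the 8 hippocampal genes all lower (median -0.09), with 0 called in each. The part of these differences in the values of the globins was not tested.

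**Figure D5:**
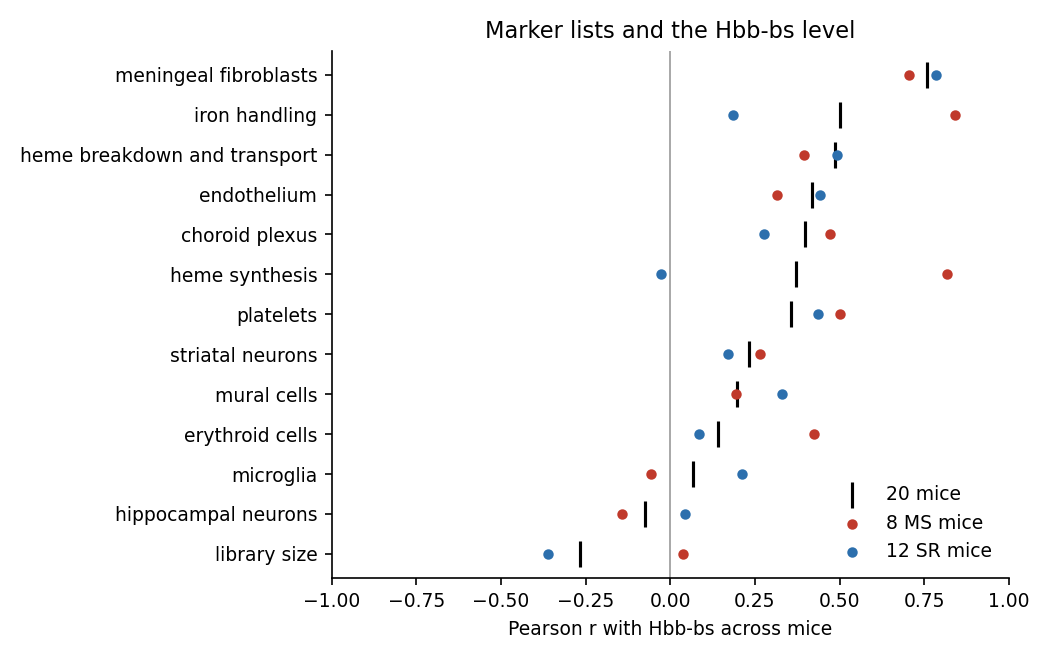
Pearson r of Hbb-bs with the mean log2 CPM of each gene list and with library size, over 20 mice (black bar), 8 MS mice (red) and 12 SR mice (blue). Meningeal fibroblasts lie farthest to the right in all mice (0.759) and near that in both groups, while heme synthesis and iron handling split between MS and SR.

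Among the 18141 other genes tested, 0 correlated with Hbb-bs at r of 0.9 or more, 2 at 0.8 or more and 19 at 0.7 or more, and the middle 95% of genes lay between -0.52 and 0.52. The 10 most alike over 20 mice were Car13 (r = 0.81), Alx4 (0.80), Cavin1 (0.79), Gm27202 (0.78), Ifitm3 (0.78), Lyz2 (0.76), Fcgrt (0.76), Col1a2 (0.76), Mgp (0.75) and Uaca (0.75). Car13 is a carbonic anhydrase gene with 0.235 to 1.80 CPM, Cavin1 a gene of membrane caveolae with 14.6 to 24.98 CPM, and Lyz2 the lysozyme gene of macrophages and neutrophils with 1.74 to 5.89 CPM. The 5 least alike were Kcnq5 (-0.80), Ptprs (-0.78), Iqsec3 (-0.76), Ptprn (-0.76) and Gm22596 (-0.75). Kcnq5 encodes a potassium channel of neurons and ran from 70.6 to 93.1 CPM. None of these 15 genes was called between MS and SR (edgeR adjusted p of 0.288 or more). The globins' own r of 0.967 to 0.989 with Hbb-bs thus lay above that of every gene outside the family.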

How the data were processed

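Poly-A RNA of the hippocampus was sequenced on an Illumina NovaSeq6000 (paired-end, 150 bases). The authors aligned the reads with STAR (2.7.3a) to GRCm38 with Ensembl annotation and counted them per gene with featureCounts, and deposited raw counts that are neither normalized nor filtered. The settings for strand and multimapping reads are not given in the sources used here. Groups are the rearing conditions of the labels, and 1 MS library was left out as described. Members and gene lists were chosen with earlier results of these data known. The genes named are the 5 members, genes of the heme and erythroid lists that passed the filter, the most abundant genes of the other lists, and the 10 most and 5 least correlated with Hbb-bs. Genes below the filter (Slc4a1, Klf1, Gata1, Hpx, Hp and the globins Hbb-y, Hbb-bh1, Hbb-bh2, Hba-x, Hbq1a, Hbq1b and Mb) are named outside that rule, after their values were seen.

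Counts were normalized by TMM, filtered with filterByExpr (minimum count 10) and tested by the robust quasi-likelihood test of edgeR 4.0.16 (R 4.3.3), with Benjamini-Hochberg adjustment over all genes tested and a threshold of 0.05; p-values rest on separate mice, of which up to 3 may share a nest. Log2 CPM used a prior count of 2. Ratios of counts (0.5 added) were compared by exact permutation of the mice, and correlations by 100000 permutations. On simulated counts for 18146 genes with 200 changed, 159 were called with the right sign and 6 unchanged genes were called. Alternatives were all 21 libraries, DESeq2 1.42.0, limma-voom (limma 3.58.1) with number sets as random blocks, sums by set, other filters, scalings, prior counts and added values, the animal number range as a covariate or as 2 separate fits, and each library or set left out. Totals of 17276810 counts or more leave a counting error of 2.48% to 4.23% in the globins and 12.9% in Alas2.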

Additional observations from a re-analysis of the deposited data

How the results depend on the processing

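No paired analysis was possible because the labels give no replicate numbers that tie an MS mouse to an SR mouse. Over 38 alternatives none of the 5 genes was called by edgeR, DESeq2 or limma-voom. Signs turned for Hba-a2 within the high range of animal numbers (-0.13 on the log2 scale) and for Alas2 without set C (0.0118) and within the low range (0.0560). The number of genes called over all genes, 2 in the fit reported, was 134 by DESeq2, 1 with all 21 libraries, 1 with no filter on low counts, 0 with counts summed by set, 0 without set A, B, D or F, 1 without set G, 340 without set C, 230 within the low and 0 within the high range, and 0 to 109 with each mouse left out (109 without MS mouse C2 and 109 without C3); the summed counts had 1753 genes at an unadjusted p under 0.05. The ratio results for Hbb-bt and Alas2 passed with each mouse left out (log2 0.13 to 0.20 and -0.39 to -0.25, exact permutation adjusted p of 0.0415 and 0.0414 at most). They also passed with all 21 libraries and with 5 added to counts. Over set means (0.17 and -0.32) neither passed, where a ratio could not pass alone even at the smallest p of the exact permutation test. Hba-a1 over Hbb-bs stayed between -0.0226 and 0.0224 with each mouse left out, and its sign turned in 6 of those fits. Hba-a2 over Hbb-bs lay between -0.107 and -0.0530, and passed without SR mouse E1 (exact permutation adjusted p = 0.0402), MS mouse B1 (0.0293) or MS mouse A3 (0.0414). Hba-a2 over Hba-a1, a different ratio, differed by -0.0794 and passed in the test over mice. Without the TMM factor the r of Hbb-bs with heme synthesis was 0.537, with heme breakdown 0.563 and with iron handling 0.586, all past the threshold. The causes were not tested. Alas2, with 37 to 109 counts per mouse, is the gene that depth limits most.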

Other observations

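The library left out, MS mouse A2, was not unusual in hemoglobin. It had 87.2 CPM of Hbb-bs, 34.0 of Hbb-bt, 97.3 of Hba-a1, 93.0 of Hba-a2 and 3.79 of Alas2, each inside the range of the other MS mice or, for Alas2, of the SR mice. Its ratio of Hbb-bt to Hbb-bs was 0.390 and its Alas2 count per 1000 of Hbb-bs 43.5, closer to the SR than to the MS means. The globins made up 0.0137% (C3) to 0.0445% (C1) of all counts in the other libraries and 0.0310% in A2. The correlation of log2 CPM with exon length over genes, taken as a rough sign of RNA quality, was 0.482 ± 0.0144 in MS (SD, n = 8) and 0.487 ± 0.00577 in SR mice (SD, n = 12). C1, the mouse with the most of every globin, had the lowest value, 0.453, and the others compared had 0.474 to 0.498. Its relation to the globin levels and ratios was not tested. The paper states that all samples passed quality control.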
